A study of Mus musculus with 12 samples.

Results

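The constant genes of the T cell receptor gamma and delta chains were followed in CD4+ T cells sorted from mouse spleen. The set was defined by name and consisted of the gamma constants Trgc1, Trgc2 and Trgc4 and the delta constant Trdc. All 4 were found by Entrez identifier among the 17523 genes of the deposited table, and all 4 were among the 15587 genes with 5 or more normalized counts in 3 or more libraries, which were tested. A normalized count is a read count divided by a factor that evens out the depth of the libraries. The cells came from unimmunized C57BL/6 Gr/fr mice aged 2 to 3 months. In every group the Csf2 allele, which encodes GM-CSF, also carried iCre and BFP under the Csf2 promoter, and Rosa26 carried eYFP behind a stop cassette that iCre removes. YFP+ cells are therefore cells in which, or in a cell they descend from, Csf2 was active at the time of the sort or earlier. YFP- cells lack that mark. Naïve cells (CD44-) and effector memory (TEM) cells (CD44hi), sorted by surface markers that include CD44, were each split by YFP, which gave 4 groups of 3 libraries: YFP- naïve, YFP+ naïve, YFP- TEM and YFP+ TEM. The labels do not name the animals behind a library, so each p-value measures the spread between these libraries.

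A T cell carries a receptor made of either an alpha and a beta chain or a gamma and a delta chain, and most gamma-delta T cells of the mouse spleen carry neither CD4 nor CD8. The delta genes lie inside the alpha locus, so that the joining of an alpha V segment to an alpha J segment removes the delta constant from that chromosome. The gamma genes form separate clusters, each with V segments, a J segment and a constant gene of its own, and gamma genes also rearrange in precursors of alpha-beta T cells.

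Positions are given on GRCm38, the assembly behind mm10. Trgc1 (Entrez 107573) lies at chr13:19214103-19216618 on the plus strand, Trgc2 (Entrez 107574) at chr13:19305060-19307551 on the minus strand and Trgc4 (Entrez 107576) at chr13:19344558-19352343 on the plus strand, all within the Tcrg locus. Trdc (Entrez 100123473) lies at chr14:54142851-54146108 on the plus strand, within Tcra and Tcrd, and Trac follows it on the same chromosome. The first 120 bases of the first exon of each gene, as GENCODE M21 gives them 5′ to 3′ in the direction of transcription, are printed because the closeness of the gamma constants decides how well their reads can be told apart. A capital marks a base that differs from both of the other gamma constants printed here, and Trdc, which was not aligned to them, has none.
Trgc1: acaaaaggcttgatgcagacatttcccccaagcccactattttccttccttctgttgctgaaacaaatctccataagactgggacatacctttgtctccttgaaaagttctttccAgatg
Trgc2: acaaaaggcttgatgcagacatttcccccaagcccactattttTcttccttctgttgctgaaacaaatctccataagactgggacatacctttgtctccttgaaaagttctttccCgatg
Trgc4: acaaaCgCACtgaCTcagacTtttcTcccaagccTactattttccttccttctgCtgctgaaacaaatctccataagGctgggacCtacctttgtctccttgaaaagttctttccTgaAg
Trdc: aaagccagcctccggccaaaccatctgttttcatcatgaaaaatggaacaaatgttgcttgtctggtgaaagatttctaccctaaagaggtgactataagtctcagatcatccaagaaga
These stretches run over chr13:19214103-19214222 (plus strand) for Trgc1, chr13:19307432-19307551 (minus strand) for Trgc2, chr13:19344558-19344677 (plus strand) for Trgc4 and chr14:54142851-54142970 (plus strand) for Trdc. Trgc1 and Trgc2 differed at 2 of the 120 bases and at 9 of the 330 bases of the whole first exon, an identity of 97.3%. Trgc4 differed from Trgc1 at 59 of the 330 bases (82.1% identity) and from Trgc2 at 61 (81.5%). A further gamma constant that is not in the set, Trgc3 (Entrez 107575), was 96.1% identical to Trgc1 and 96.7% identical to Trgc2 over that exon.

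In 50-base windows over the exons, 194 of 469 windows of Trgc1 (41.4%) and 103 of 454 windows of Trgc2 (22.7%) also occurred in the GENCODE transcripts of another gamma constant. None of the 523 windows of Trgc4 and none of the 1056 windows of Trdc occurred in a transcript of another gene. The division of reads between Trgc1, Trgc2 and Trgc3 is therefore uncertain, while Trgc4, Trdc and the sum of the gamma constants depend on it less. Reads on genes numbered 40974124 to 57822269 per library, and every normalized count was a whole number of reads once multiplied by the factor of its library (100% of values within 0.001). The sort on CD44 could be seen in the RNA: Cd44 was higher in TEM than in naïve cells by a log2 fold change of 2.97 in YFP- and 3.21 in YFP+ cells (limma, called in each). Cd4, which does not separate these sorts since all groups were sorted as CD4+, was higher in TEM cells by 0.59 and 0.52 (limma, called in each).

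Transcripts of all 3 gamma constants were scarce in naïve cells, more abundant in YFP- TEM cells and most abundant in YFP+ TEM cells, whereas Trdc was highest in naïve cells and lower in both kinds of TEM cells. Normalized counts of replicates 1, 2 and 3 are given in that order. Trgc1 had 4.61, 17.0 and 21.9 in naïve cells without YFP and 12.4, 13.8 and 3.72 in those with YFP, and in TEM cells it had 98.4, 74.1 and 78.4 without and 1113, 632 and 1099.8 with YFP. Its naïve groups overlapped, every YFP- TEM library lay above every naïve library, and every YFP+ TEM library lay above every YFP- TEM library. Trgc2 had 1.15, 6.37 and 4.61 (YFP-) and 6.18, 6.89 and 2.79 (YFP+) in naïve cells, and 86.1, 60.0 and 61.1 (YFP-) and 1670.2, 670.0 and 1260.4 (YFP+) in TEM cells. Trgc4 had 5.76, 4.24 and 5.76 (YFP-) and 1.24, 4.92 and 7.44 (YFP+) in naïve cells, and 74.6, 34.8 and 35.7 (YFP-) and 721, 387 and 661 (YFP+) in TEM cells. Both genes showed the order seen for Trgc1, with naïve groups that overlapped and TEM groups that did not. In naïve libraries these values rest on few reads, 4 to 19 for Trgc1, 1 to 7 for Trgc2 and 1 to 8 for Trgc4, so a difference of a few reads was not detectable at this depth.

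Trdc, the constant of the delta chain, ran the other way between naïve and TEM cells. Naïve cells had 579, 631 and 546 normalized counts of Trdc without YFP and 568, 496 and 459 with it, and TEM cells had 214, 248 and 358 without and 216, 258 and 189 with YFP. Every naïve library lay above every TEM library, and the YFP+ and YFP- libraries overlapped within each cell type. In order of level, the means were 586 ± 42.9 (SD, n = 3) in YFP- naïve cells, 507 ± 55.4 in the YFP+ naïve, 273 ± 75.1 in the YFP- TEM and 221 ± 34.6 in the YFP+ TEM group. The pair of naïve groups and the pair of TEM groups did not differ beyond their spread. For Trgc1 the order began with YFP+ TEM at 948 ± 274 and YFP- TEM at 83.7 ± 13.0, and ended with YFP- naïve at 14.5 ± 8.90 and YFP+ naïve at 9.95 ± 5.44, which did not differ beyond their spread. In bulk RNA a smaller share of cells that carry a transcript and less of that transcript in each cell cannot be told apart, for these genes and all that follow.

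**Figure D1:**
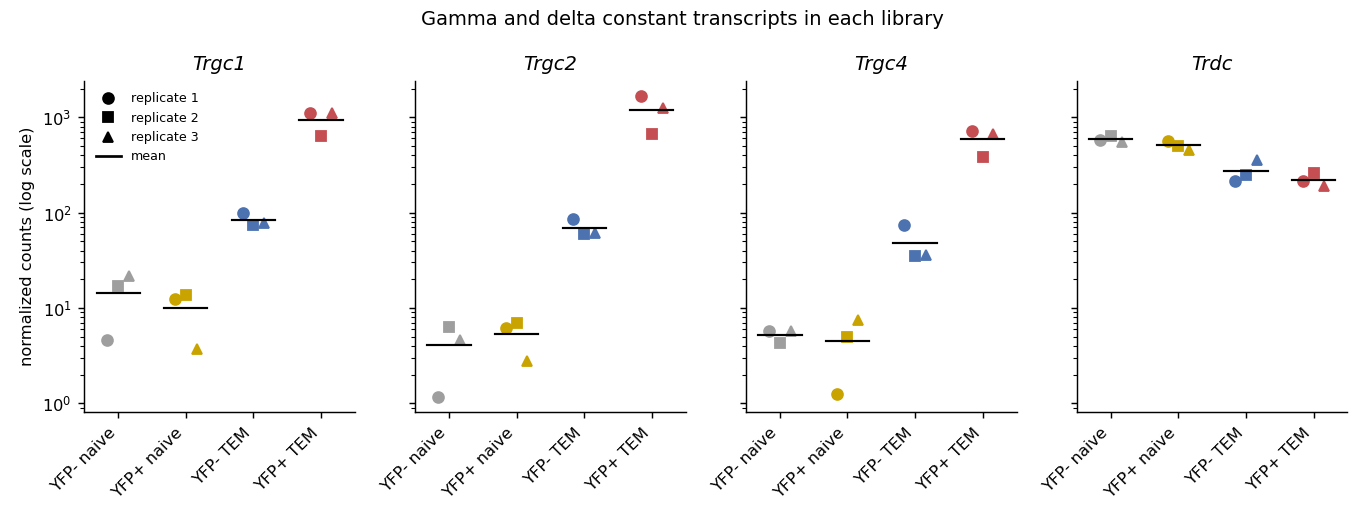
Normalized counts on a log scale of Trgc1, Trgc2, Trgc4 and Trdc in each of the 12 libraries, with the groups on the horizontal axis, 1 symbol per replicate number and a line at the group mean. The gamma constants reach 387 to 1670.2 in YFP+ TEM cells and at most 98.4 in YFP- TEM cells, while Trdc lies between 459 and 631 in naïve and between 189 and 358 in TEM cells.

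Per kilobase of exon, which allows genes to be compared, Trdc exceeded each gamma constant in every naïve library, with 415 to 571 normalized counts per kilobase against at most 42.3 for Trgc1, 13.7 for Trgc2 and 13.0 for Trgc4. In YFP- TEM cells Trdc, at 194 to 324 per kilobase, still lay above Trgc1 at 143 to 190.0, Trgc2 at 119 to 171 and Trgc4 at 60.9 to 130.5. In YFP+ TEM cells the order was turned round, with Trgc2 at 1332 to 3320.5 per kilobase, Trgc1 at 1219 to 2149, Trgc4 at 677 to 1260.2 and Trdc at 171 to 233. The exons inside the RefSeq bounds measure 518 bases for Trgc1, 503 for Trgc2, 572 for Trgc4 and 1105 for Trdc. GENCODE gives longer exons, 924, 914, 985 and 3865 bases, so a level per length depends on the annotation. With those lengths Trdc no longer lies above each gamma constant in every YFP- TEM library, so that order holds for the RefSeq bounds only.

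The ratio of gamma to delta constant transcripts, the sum of Trgc1, Trgc2 and Trgc4 over Trdc per kilobase of exon, separated the TEM groups from each other and from naïve cells. Naïve libraries had 0.0405, 0.0925 and 0.124 without YFP and 0.0746, 0.109 and 0.0620 with it. It was 2.54, 1.44 and 1.04 in YFP- TEM and 34.4, 13.8 and 33.8 in YFP+ TEM libraries. The lowest YFP- TEM library stood 8.33-fold above the highest naïve library, and the lowest YFP+ TEM library stood 5.45-fold above the highest YFP- TEM library. The mean log2 ratio of naïve cells was -3.69 ± 0.84 (SD, n = 3) without and -3.65 ± 0.41 with YFP, and that of TEM cells 0.64 ± 0.65 without and 4.66 ± 0.75 with YFP. The naïve groups overlapped and did not differ beyond their spread. No p-value is given for the ratio, and an exact permutation of 3 libraries against 3 could not have gone below 0.10.

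The reads behind the ratio were few in naïve cells, with 10, 26 and 28 gamma reads against 503, 595 and 474 delta reads in YFP- libraries and 16, 26 and 15 against 459, 504 and 493 in YFP+ libraries. YFP- TEM libraries had 316, 228 and 172 gamma reads and 261, 334 and 351 delta reads. YFP+ TEM libraries had 3466, 1631 and 3178 gamma reads and 214, 249 and 199 delta reads. The gamma share of these reads thus lay between 1.95% and 5.58% in naïve libraries, where the largest Wilson 95% interval bound was 7.94%. It was 54.8% (Wilson 95% interval 50.7 to 58.8%), 40.6% (36.6 to 44.7%) and 32.9% (29.0 to 37.0%) in YFP- TEM, and 94.2% (93.4 to 94.9%), 86.8% (85.1 to 88.2%) and 94.1% (93.3 to 94.9%) in YFP+ TEM libraries. These intervals cover the counting of reads only, and the spread between YFP- TEM libraries was wider than they are.

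The order of the ratio was the same under all 9 ways of computing it, including each gamma constant left out in turn, longer GENCODE exons, windows unique to a gene and no correction for length. Whether the ratio of YFP- TEM cells lay above or below 1 was not, since its mean log2 value was -0.43 with no correction for length and 1.61 with GENCODE exons. Beside Trac, the alpha constant, the changes in the ratio split into their parts. For each 100 Trac transcripts per kilobase there were 0.0272 to 0.0925 gamma constant transcripts in naïve, 0.565 to 0.868 in YFP- TEM and 5.39 to 10.4 in YFP+ TEM libraries. Trdc stood at 0.636 to 1.00 per 100 Trac in naïve, 0.342 to 0.631 in YFP- TEM and 0.281 to 0.390 in YFP+ TEM libraries. Both constants were therefore minor beside the alpha constant in every group, and it was the gamma sum that set YFP+ TEM apart from YFP- TEM libraries.

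**Figure D2:**
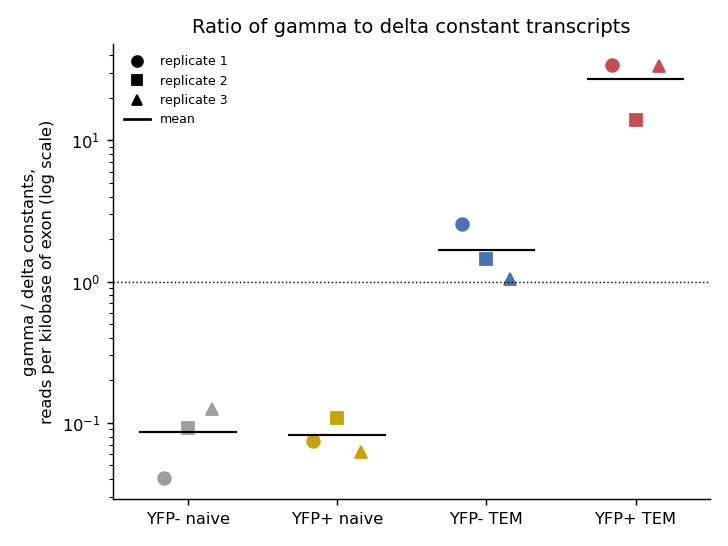
Ratio of gamma to delta constant reads per kilobase of exon in each library on a log scale, with 1 symbol per replicate number, a line at the group mean and a dotted line at equal amounts. Naïve libraries lie at 0.0405 to 0.124, YFP- TEM libraries at 1.04 to 2.54 and YFP+ TEM libraries at 13.8 to 34.4.

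Between TEM and naïve cells, the first comparison of the design, the 3 gamma constants rose and Trdc fell, with or without YFP. In YFP- cells the mean of Trgc1 was 5.77-fold, of Trgc2 17.1-fold and of Trgc4 9.21-fold that of naïve cells, and Trdc fell to 0.466 of its naïve mean. The log2 fold changes of log2(normalized count + 1), a scale that understates the change of low genes, were 2.67 for Trgc1 (SE 0.55, limma adjusted p = 0.00144), 3.95 for Trgc2 (SE 0.51, adjusted p = 3.62e-05) and 2.90 for Trgc4 (SE 0.51, adjusted p = 0.000438). Trdc changed by -1.13 (SE 0.19, limma adjusted p = 0.000352). All 4 members were thus called at an adjusted p of 0.05 or less, in a comparison where 49.8% of all tested genes were. Quantile normalization, which moved the median of all genes from 0.05 to -0.20, gave Trgc1 a log2 fold change of 1.15 and an adjusted p of 0.0652, and left Trgc2, Trgc4 and Trdc called.

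In YFP+ cells the same comparison gave larger values for the gamma constants. Mean levels in TEM cells were 95.3-fold (Trgc1), 227-fold (Trgc2) and 130.1-fold (Trgc4) those in naïve cells, and Trdc fell to 0.436 of its naïve mean. The log2 fold changes were 6.56 for Trgc1 (limma adjusted p = 1.45e-06), 7.55 for Trgc2 (adjusted p = 2.25e-07) and 6.89 for Trgc4 (adjusted p = 4.63e-07), with the standard errors given for YFP- cells. For Trdc it was -1.20 (SE 0.19, limma adjusted p = 0.000299). Again 4 of 4 members were called, against 41.4% of all tested genes. Where a log2 fold change of at least 2 was also required, the gamma constants stayed called in both kinds of cells and Trdc in neither.

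Between YFP+ and YFP- TEM cells, the comparison of cells with and without the mark of Csf2 activity, the gamma constants rose and Trdc did not pass the test. The YFP+ mean was 11.3-fold the YFP- mean for Trgc1, 17.4-fold for Trgc2 and 12.2-fold for Trgc4. By replicate number the folds were 11.3, 8.52 and 14.0 for Trgc1, 19.4, 11.2 and 20.6 for Trgc2 and 9.66, 11.1 and 18.5 for Trgc4. Each gamma constant was thus higher in 3 of 3 numbered pairs, and the groups did not overlap. The log2 fold changes were 3.45 for Trgc1 (SE 0.55, limma adjusted p = 0.00196), 4.02 for Trgc2 (SE 0.51, adjusted p = 0.00052) and 3.62 for Trgc4 (SE 0.51, adjusted p = 0.000961). For Trdc the folds by replicate number were 1.01, 1.04 and 0.529, the groups overlapped, and the log2 fold change was -0.28 (SE 0.19, limma adjusted p = 0.566). In this comparison 3 of 4 members were called, all 3 higher in YFP+ cells, where 6.97% of all tested genes were called and 2.30% were called higher. With the replicate number as a block the number of genes called over the whole table moved from 1087 to 1869, and the calls of the members did not change.

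Between YFP+ and YFP- naïve cells no constant was called. The fitted log2 fold changes were -0.44 for Trgc1, 0.42 for Trgc2, -0.37 for Trgc4 and -0.21 for Trdc (limma, adjusted p = 1 for each), and the libraries of the groups overlapped for all 4. In the whole table limma called 1 gene here, 0.00642% of those tested, and 518 genes had an unadjusted p under 0.05. The count was 2 with edgeR, 14 with DESeq2 and 6 with the replicate block in limma. The signs of the 3 gamma values changed when single libraries were left out, so no direction is given for them.

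The difference between these effects of YFP was tested itself. On the log2 scale the effect in TEM cells exceeded that in naïve cells by 3.89 for Trgc1 (SE 0.78, limma adjusted p = 0.0161), 3.60 for Trgc2 (SE 0.72, adjusted p = 0.0161) and 3.99 for Trgc4 (SE 0.72, adjusted p = 0.00995). For Trdc the difference was -0.07 (SE 0.27, limma adjusted p = 0.996). The test called 3 of 4 members, against 3.55% of all tested genes, 0.828% with a positive difference. Trgc4 was called under all 27 alternatives. Trgc1 lost its call without YFP- TEM replicate 3 (adjusted p = 0.0509), and Trgc2 lost it without that library and without YFP+ TEM replicate 1 (highest adjusted p of these fits 0.0524). Trgc2 also lost it with 0.1 in place of 1 added before the log2 (adjusted p = 0.0652).

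**Figure D3:**
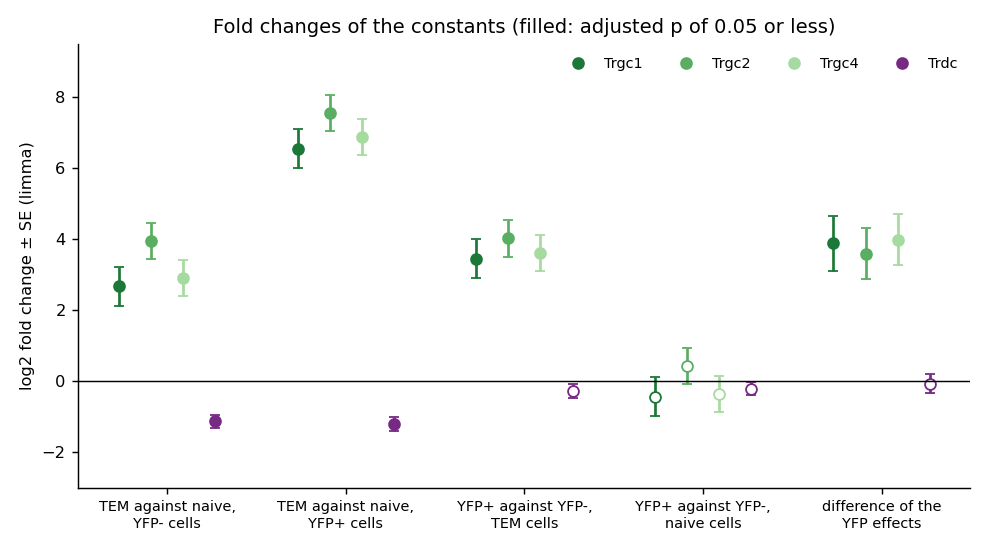
Log2 fold changes of the 4 constants from limma with 1 standard error, for the 4 comparisons of groups and for the difference between the effects of YFP in TEM and naïve cells, where filled points have an adjusted p of 0.05 or less. The gamma constants lie between 2.67 and 7.55 in the TEM comparisons with naïve cells and between 3.45 and 4.02 for YFP in TEM cells, while Trdc lies at -1.13, -1.20 and -0.28.

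Within the gamma sum the share of Trgc2 was higher, and that of Trgc1 lower, in YFP+ than in YFP- TEM libraries. Per kilobase, Trgc1 took 38.6, 44.3 and 45.2% of the gamma constants in YFP- TEM libraries and 31.9, 37.8 and 36.7% in YFP+ TEM libraries. Trgc2 took 34.8, 36.9 and 36.2%, then 49.3, 41.3 and 43.3%, and Trgc4 took 26.5, 18.8 and 18.6%, then 18.7, 21.0 and 20.0%. The groups did not overlap in the shares of Trgc1 and Trgc2, and overlapped in the share of Trgc4. Trgc2 stood at 0.802 to 0.901 of Trgc1 per kilobase in YFP- and at 1.09 to 1.55 in YFP+ TEM libraries. This shift was not tested, and it lies between the pair of constants whose reads are hardest to divide. Shares in naïve libraries rest on 10 to 28 gamma reads and ranged from 27.9 to 68.7% for Trgc1.

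**Figure D4:**
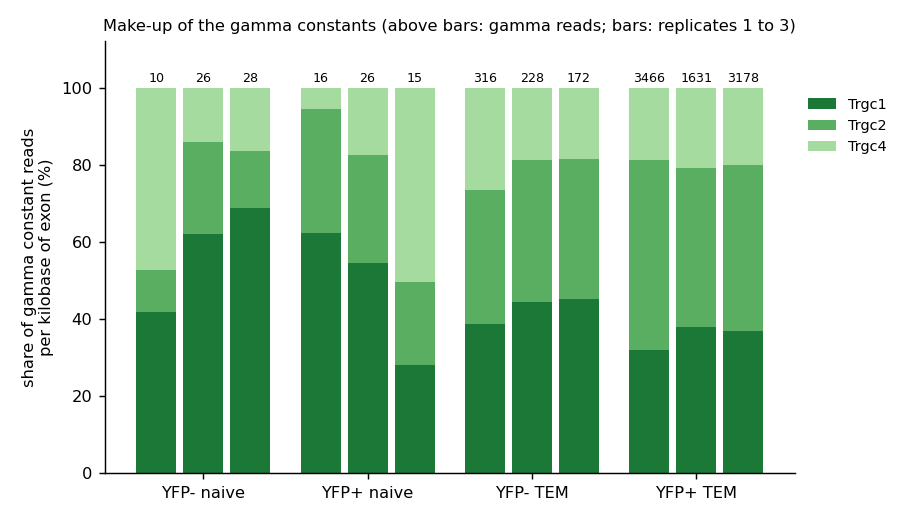
Share of Trgc1, Trgc2 and Trgc4 in the gamma constant reads per kilobase of exon, with 1 bar per library in the order of replicates 1 to 3 and the number of gamma reads above each bar. In TEM libraries Trgc4 holds 18.6 to 26.5%, and Trgc2 holds 34.8 to 36.9% in YFP- and 41.3 to 49.3% in YFP+ libraries.

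Trgc3 was listed at 0 in all 6 naïve libraries and rose in TEM cells. It had 10.7, 6.67 and 5.09 normalized counts in YFP- TEM libraries and 50.6, 17.6 and 44.7 in YFP+ TEM libraries. With a floor of 3 reads per naïve library, it was at least 2.22-fold higher in YFP- and at least 11.9-fold higher in YFP+ TEM cells than in naïve cells. Between the TEM groups, which did not overlap, the log2 fold change was 2.11 (SE 0.53, limma adjusted p = 0.0305), a call kept in 11 of 21 alternatives. Reads of Trgc3 share windows with Trgc1 and Trgc2, as given for 160 of its 468 windows (34.2%), so its level is uncertain.

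The V and J segments of the gamma locus, which are spliced to the constants in a rearranged transcript, were higher in TEM cells for some members and not called for others. Of 11 such genes 10 were in the table and 9 were tested, all 9 of which passed the filter on low values only with the help of TEM libraries. Trgv3, Trgv5, Trgv6, Trgj1 and Trgj2 passed it only through the YFP+ TEM libraries, so they had to be higher there, and counts and medians over the tested segments are a description. Trgv2, which belongs with Trgc2, had 65.6, 21.5 and 30.6 normalized counts in YFP- TEM and 680.4, 274 and 571 in YFP+ TEM libraries. Trgv4, of the Trgc1 cluster, had 18.04, 8.15 and 30.6, then 326, 174 and 315. Trgv1, of the Trgc4 cluster, had 26.2, 15.6 and 24.4, then 295, 135 and 234. In each of these the YFP+ libraries lay above all YFP- libraries, and naïve libraries had at most 6.89. Summed over the list, TEM libraries reached 74.1 to 149 normalized counts without and 790.1 to 1640 with YFP, and naïve libraries 2.30 to 22.3.

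Between the TEM groups 6 of 9 tested gamma segments were called, all higher in YFP+ cells, and 3 did not pass. Of all tested genes 6.97% were called in this comparison and 2.30% were called higher. Of the 6, Trgv3, Trgj1 and Trgj2 are among those tested only because of the YFP+ TEM libraries, which leaves Trgv1, Trgv2 and Trgv4. The 6 were Trgv1 (log2 fold change 3.23), Trgv2 (3.72), Trgv3 (3.49), Trgv4 (3.89), Trgj1 (3.22) and Trgj2 (4.0), each with a limma adjusted p of 0.0126 or less. With 0.1 added before the log2, 5 of them lost the call and Trgv2 kept it, and Trgv3 lost it in 4 of the 6 fits without 1 TEM library. Trgv5, Trgv6 and Trgj4 had log2 fold changes of 3.21, 1.90 and 2.73 and limma adjusted p of 0.0681, 0.0827 and 0.0699. The median of the tested segments was 3.23, against -0.01 over all genes. Between TEM and naïve cells 29.9% (YFP-) and 24.7% (YFP+) of all tested genes were called higher. Of the segments, 5 were called higher in YFP- cells (Trgv1, Trgv2, Trgv4, Trgj1 and Trgj2) and 9 in YFP+ cells. Their medians were 1.47 and 4.88, with Trgj2 in YFP- and Trgj1 in YFP+ cells set to a bound from 3 reads. These had no read in any naïve library of their comparison, and the other segments kept their fitted values. The YFP- calls of Trgv4, Trgj1 and Trgj2 were lost under quantile normalization, and that of Trgj1 also without YFP- naïve replicate 1 or 2 (adjusted p = 0.0716 and 0.0707) or YFP- TEM replicate 1 (0.114). Between the naïve groups 0 were called by limma, and the difference of the effects was called for Trgj2 alone (3.34, adjusted p = 0.0498), a call lost in 18 alternatives, the replicate block among them (adjusted p = 0.0588). The list was put together with results of these libraries known.

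Cluster by cluster, segment counts in YFP+ TEM libraries came to 36.4 to 43.0% of the constant for Trgc1 (Trgv4, Trgv5, Trgv6, Trgv7 and Trgj1), 47.4 to 52.3% for Trgc2 (Trgv2 and Trgj2) and 43.6 to 53.3% for Trgc4 (Trgv1 and Trgj4). In YFP- TEM libraries these shares were 32 to 46.8%, 40.7 to 81.9% and 49.5 to 80.0%, and they overlapped those of the YFP+ libraries in all 3 clusters. The counts are per gene and not per length. Within the Trgc1 cluster Trgv4 had more counts than any other segment in each YFP+ TEM library, while Trgv7 was not tested and had at most 7.08 normalized counts in any library. Trgv5 had 13.1, 51.8 and 9.51 in YFP+ TEM libraries and was highest in replicate 2, where Trgv4 was lowest.

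**Figure D5:**
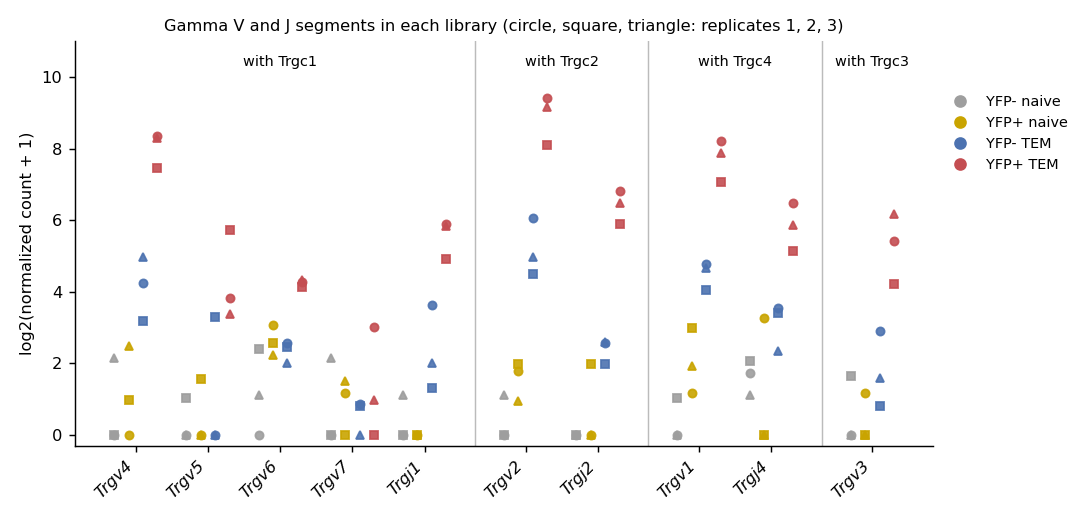
Log2(normalized count + 1) of each gamma V and J segment in the table, in each of the 12 libraries, grouped by the constant gene of the same cluster, with colour for the group and symbol for the replicate number. Trgv2, Trgv4 and Trgv1 reach 135 to 680.4 normalized counts in YFP+ TEM libraries and at most 65.6 in YFP- TEM libraries.

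Of 10 delta V, D and J genes 8 were in the table and 7 were tested, and limma called 0 of them for YFP in TEM or naïve cells. Between TEM and naïve YFP- cells 3 of 7 were called, all lower in TEM cells. Of all tested genes 49.8% were called in that comparison and 19.9% were called lower. The 3 segments were Trdv2-1 (log2 fold change -1.73, limma adjusted p = 0.0251), Trdv2-2 (-1.90, adjusted p = 0.00416) and Trdj1 (-1.49, adjusted p = 0.034). Trdv2-1 and Trdj1 lost their calls in 5 and 4 of the 6 fits without 1 library. In YFP+ cells Trdj2 alone fell (-2.35, limma adjusted p = 0.00703), from 6.18, 6.89 and 3.72 normalized counts in naïve to 1.01, 0 and 0 in TEM libraries. Of all tested genes 16.7% were called lower there, so this count is near that share. Trdv2-2 had 278, 187 and 135 normalized counts in naïve and 36.1, 53.4 and 66.2 in TEM cells without YFP, and 198, 122.98 and 128 in naïve and 123.34, 71.5 and 30.4 in TEM cells with YFP. Its naïve libraries all lay above the TEM libraries among YFP- cells, and overlapped them in 1 pair of values among YFP+ cells. The median log2 fold change of the tested delta segments was -0.30 in YFP- and -1.16 in YFP+ cells for TEM against naïve, and -0.01 for YFP in TEM cells.

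A single library stood apart in Trdv1, a V segment that joins to delta. It had 83.9, 1421 and 73.2 normalized counts in YFP+ TEM libraries, and 57.4 to 145 in the other 9, so that replicate 2 held 18.1-fold the mean of replicates 1 and 3. The same library was high in Trgv5 (4.57-fold) and in Trav13-4-dv7 (3.42-fold, 439 against 125 and 131), a V segment that alpha and delta share. It was low in Trgc1 (0.571 of the mean of the others), Trgc2 (0.457), Trgc4 (0.561) and the summed gamma segments (0.516), and Trdc stood at 1.27. Without this library the log2 fold changes between the TEM groups were 3.72 for Trgc1, 4.39 for Trgc2 and 3.90 for Trgc4, all still called, and 1018 genes of the table were called.

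The 10 V segments named for both alpha and delta can join to either constant, so their counts do not measure delta alone. Of these, 2 were lower in TEM than in naïve cells in both YFP- and YFP+ cells, Trav15-1-dv6-1 (-2.66 and -1.38) and Trav14d-3-dv8 (-0.95 and -0.82). This count is near the 19.9% (YFP-) and 16.7% (YFP+) of all tested genes that were called lower. For YFP in TEM or naïve cells limma called 0 of 10, where 6.97% and 0.00642% of all tested genes were called. The call of Trav15-1-dv6-1 in YFP+ cells was lost in 10 alternatives. The most abundant were Trav4-4-dv10, with 403 to 784 normalized counts over all libraries, and Trav14d-3-dv8, with 318 to 383 in YFP+ TEM and 506 to 717 in YFP+ naïve libraries. Trav14d-3-dv8 thus did not overlap between cell types, and Trav4-4-dv10 did.

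Between TEM and naïve cells the constants of the alpha and beta chains changed little beside those of gamma and delta. Between the TEM groups they changed little beside the gamma constants. Trac had 52213 to 74836 normalized counts over the 6 naïve libraries, 47568 to 53057 in TEM cells without and 55500.2 to 60017 with YFP. Of Trac, Trbc1 and Trbc2 limma called 0 between the YFP groups, with log2 fold changes of 0.17, 0.11 and 0.19 in TEM cells. For Trac and Trbc2 every YFP+ TEM library still lay above every YFP- TEM library. Between TEM and naïve YFP- cells Trbc1 (-0.32, adjusted p = 0.025) and Trbc2 (-0.40, adjusted p = 0.0137) fell, calls that quantile normalization removed (adjusted p = 0.524 and 0.807), as did leaving out YFP- TEM replicate 3 (0.109 and 0.0603). Trbc1 also lost its call without YFP- TEM replicate 1 (0.0864) or YFP- naïve replicate 1 (0.077). Of the CD3 chains, which serve both kinds of receptor, 1 of 4 fell in that comparison, Cd3d (-0.36, limma adjusted p = 0.0438), and 0 were called in the others. Of all tested genes 49.8% were called in that comparison and 19.9% were called lower, so 1 of 4 is near that share. For YFP, 6.97% of all tested genes were called in TEM cells and 0.00642% in naïve cells. Stard3nl, next to Tcrg, rose in TEM cells with log2 fold changes of 0.65 and 0.59 (both called) and had -0.13 for YFP in TEM cells (not called). Dad1, next to Trac, had -0.22, -0.18 and 0.08 in these comparisons (none called).

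Of 18 genes that are known from gamma-delta T cells, most of them shared with other T cells, 16 were tested. For TEM against naïve, 13 rose and Sox4 fell (-3.59 in each) in both YFP- and YFP+ cells, where 49.8% and 41.4% of all tested genes were called and 29.9% and 24.7% were higher. Of the 16, 6 passed the filter on low values only with the help of TEM libraries (Zbtb16, 5830411N06Rik, Il23r, Kcnk1, Cd163l1 and Il1r1). Maf, a transcription factor of several T cell subsets, rose by 4.59 and 4.55 on the log2 scale. Ccr6, a chemokine receptor, rose by 6.18 and 6.24, and Tmem176a and Tmem176b rose by 4.68 and 4.48 in YFP- cells. For YFP in TEM cells, where 6.97% of all tested genes were called, 4 of 16 were called, all higher, and 12 did not pass. Zbtb16, which encodes PLZF, had 260.0, 108 and 198 normalized counts in YFP- and 2655, 884 and 2088 in YFP+ libraries (log2 fold change 3.25, limma adjusted p = 0.00854). Kcnk1, a potassium channel, had 4.92, 0.741 and 3.06, then 184, 77.7 and 135 (5.18, adjusted p = 0.000234), and it was tested only because its YFP+ TEM libraries passed the filter, so its call is no support. Il23r, the receptor for IL-23, had 99.2, 64.5 and 117, then 387, 199.9 and 362 (1.73, adjusted p = 0.0226), and 5830411N06Rik, of the scavenger receptor family of Cd163l1, had 105, 72.6 and 66.2, then 543, 379 and 496 (2.54, adjusted p = 0.0164). All 4 were higher in each YFP+ than in each YFP- TEM library.

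Not all calls on these genes were stable. Il23r and 5830411N06Rik lost theirs in 5 and 4 of the 6 fits without 1 TEM library, and all but Kcnk1 lost theirs with 0.1 added before the log2. The median log2 fold change of the 16 genes was 1.30 for YFP in TEM cells, 0.08 for YFP in naïve cells, and 4.53 and 5.0 for TEM against naïve in YFP- and YFP+ cells, against -0.01, 0.01, 0.05 and 0.03 over all genes. Il23r was listed at 0 in all naïve libraries and was at least 27.8-fold higher in YFP- and at least 100.4-fold higher in YFP+ TEM cells. Sox13, a transcription factor of gamma-delta T cells, and Il17a were not tested. Sox13 was listed at 0 in all YFP- TEM libraries and had 4.04, 1.04 and 12.4 normalized counts in YFP+ TEM libraries, and Il17a had at most 21.9.

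Among 21 genes of lineage choice and receptor rearrangement, 20 were in the table and 19 were tested. For YFP in TEM cells, where 6.97% of all tested genes were called, 2.30% higher and 4.67% lower, 16 did not pass. Id2 (log2 fold change 0.96, limma adjusted p = 0.00153) and Il7r (0.84, adjusted p = 0.00171) rose, and Dntt fell. Dntt, which adds bases at the joints of rearranging receptor genes, had 449, 211 and 408 normalized counts in YFP- and 33.4, 7.25 and 8.55 in YFP+ TEM libraries (-4.61, limma adjusted p = 0.000154), and the groups did not overlap. Between TEM and naïve cells 4 rose and 6 fell in YFP- cells and 3 rose and 6 fell in YFP+ cells, shares near the 49.8% and 41.4% of all tested genes, with Tcf7 (-1.25 and -1.13), Bcl11b (-1.02 and -0.75) and Ets1 (-0.78 and -0.55) lower in both. Rag1, needed for rearrangement itself, was not tested and had at most 5.74 normalized counts in any library.

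Markers of other cells moved in both directions between YFP- and YFP+ TEM cells. Of all tested genes 6.97% were called in this comparison, 2.30% higher and 4.67% lower in YFP+ cells. The 3 genes listed for invariant NKT cells, Trav11, Trav11d and Zbtb16, were all called higher in YFP+ TEM cells (3.89, 3.96 and 3.25), and their sum rose from 287 to 519 normalized counts in YFP- to 2860.2 to 7395 in YFP+ TEM libraries, against 120 to 242 in naïve libraries. In YFP+ TEM replicate 2 this sum was 0.409 of the mean of the other replicates. Other lists were low there too, at 0.390 (B cells), 0.563 (CD8), 0.589 (innate lymphoid) and 0.603 (macrophages, monocytes and neutrophils). Plasmacytoid dendritic cell genes stood at 0.619, natural killer genes at 0.653 and the alpha-beta constants at 0.971. Of 7 measured natural killer cell genes 4 were higher in YFP+ TEM cells (Ncr1, Klrb1c, Klre1 and Klra4) and 2 lower (Fcer1g and Tyrobp), where Ncr1, Klre1 and Klra4 were tested only because their YFP+ TEM libraries passed the filter. The list summed to 3935 to 6364 in YFP- and 1683 to 2692 in YFP+ TEM libraries, and Ncr1 was listed at 0 in YFP- TEM libraries. Tyrobp (mean 2818, then 222) and Fcer1g (1519, then 235) held most of the YFP- sum, so its fall is theirs. Klrb1c rose from a mean of 154 to 1304. Both CD8 genes were lower (sums 685 to 1490.3, then 187 to 373), as were 4 of 5 plasmacytoid dendritic cell genes (9201 to 16832, then 4371 to 7475) and 2 of 6 genes of macrophages, monocytes and neutrophils (5609 to 10148, then 1673 to 3087). Some uncalled members of these lists had higher means in YFP+ TEM cells: Ccr9 (975, then 2442), S100a8 (0.494, then 28.7) and S100a9 (1.48, then 49.1). S100a8 and S100a9 were tested only because their YFP+ TEM libraries passed the filter. Of 6 innate lymphoid genes 1 rose, Ncr1, which is the gene already counted among the natural killer genes and has the same limit, and 1 fell (Kit). Of 5 B cell genes 1 rose (Cd79a). The 8 genes listed as markers of gamma-delta T cells, which include the constants, summed to 543 to 686 in YFP- and 2410 to 4386 in YFP+ TEM and to 533 to 734 in naïve libraries. The part of other cells in the values of the constants was not tested.

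Over all 12 libraries, which differ by cell type and YFP alike, the genes most like each constant were listed by Pearson's r of log2(normalized count + 1) among 11909 genes with a mean of at least 50. Those nearest to Trgc2 were Cracdl (0.991), Trgv2 (0.986), Tmem106b (0.985), Pde7a (0.984) and Samd3 (0.982). Nearest to Trgc1 were Cracdl (0.981), Tmem106b (0.970), Crot (0.968), Atp8a2 (0.967) and Trgv2 (0.967), and nearest to Trgc4 were Edaradd (0.990), Tmem106b (0.984), Gm4956 (0.980), F2rl2 (0.979) and Nr1d1 (0.978). Tmem106b was among the 5 of each gamma constant. For Trdc they were Suv39h1 (0.968), 4930432K21Rik (0.967), Lrrc42 (0.966), Hspb11 (0.963) and Nedd4l (0.962), and no gene stood on both the Trdc list and a gamma list. The libraries of a cell type share that cell type, which such a coefficient reflects.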

How the data were processed

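RNA of 12 libraries of sorted CD4+ T cells was sequenced, 3 per group, with groups taken from the sample titles. Per the study's methods, a stranded total RNA kit was used, DRAGEN mapped the reads to mm10 and Rsubread counted them on genes. The deposited signal is a normalized count, for which the authors divided each gene's reads by the DESeq2 size factor of the library. Annotation, versions and strand handling of that counting are not given in the sources used here, so reads of near-identical or overlapping genes could not be reassigned. No column of the table went unused (0).

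Symbols and gene bounds came from RefSeq (16749 of 17523 genes matched by Entrez identifier), and exons and sequences from GENCODE M21, on GRCm38. Lengths are GENCODE exon bases inside the RefSeq bounds. limma 3.58.1 (R 4.3.3) was fitted to log2(normalized count + 1) with 4 group means over 12 libraries and a mean-variance trend (8 residual degrees of freedom). Adjustment was by Benjamini-Hochberg over the 15587 tested genes, and genes at 0.05 or less were called. The 5 contrasts share libraries and are not independent. Scripts were tested on simulated data. Replicates differed by more than counting noise (chi-square per degree of freedom 36.5 to 80.3).

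Same-numbered YFP+ and YFP- libraries deviated together from their group means (r = 0.306, 0.491 and 0.360 in naïve and 0.180, 0.338 and 0.356 in TEM cells), and from this, not from the labels, the numbers were taken to pair them. Naïve and TEM libraries did so in YFP- cells (0.168, 0.137 and 0.232) but not in every YFP+ pair (0.204, -0.0199 and 0.0561).

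The members and gene lists were chosen with earlier results of these data known. Named by rule are the constants, their neighbours, the alpha-beta constants, CD3 chains and receptor segments, from each other list the 4 most abundant genes and any called for YFP, and the 5 genes most like each member, and of these the text gives examples. A further marker of the sort is not reported here. Alternatives were 0.1 or 5 added before the log2, other filters, TMM or quantile scaling, a fit of only the groups compared, the replicate block, a fit without the trend, fold thresholds, each library left out, and edgeR 4.0.16 and DESeq2 1.42.0 on the recovered reads. edgeR called 7810 and 6321 genes for TEM against naïve (YFP- and YFP+), 1126 for YFP in TEM and 480 for the difference. edgeR with the block, lengths over windows unique among transcripts and a gamma sum with Trgc3 were chosen after seeing the data.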

Additional observations from a re-analysis of the deposited data

Results flagged for a closer look

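The effect of YFP differed between TEM and naïve cells, by limma's test of the difference itself, for Trgc1 (3.89 on the log2 scale), Trgc2 (3.60) and Trgc4 (3.99), and for Trgj2 (3.34), Zbtb16 (3.98), 5830411N06Rik (3.27) and Kcnk1 (5.18) among the genes listed beside them, each with the larger value in TEM cells. For Dntt it differed by -3.11 (adjusted p = 0.0196), with normalized counts of 669 to 771 in YFP- naïve, 209 to 286 in YFP+ naïve, 211 to 449 in YFP- TEM and 7.25 to 33.4 in YFP+ TEM libraries. Kcnk1 was listed at 0 in all 6 naïve libraries (adjusted p = 0.00453), so its fitted difference depends on the value added before the log2. Kcnk1 and Trgj2 passed the filter on low values only through the YFP+ TEM libraries, the group in which they are high, so their differences are a description. The calls of Trgj2, 5830411N06Rik and Zbtb16 were lost in 18, 16 and 13 of the alternatives.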

How the results depend on the processing

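Of 4293 values of 199 gene results under alternatives, 3876 kept their direction and side of the threshold, 409 lost the call and 8 reversed. Apart from the members, a gene entered this tally only where the main fit called it, so it could lose a call but not gain one. Reversed were values with no call: Trdc for YFP in TEM cells (0.0112) and for the difference (0.19) under quantile normalization, and, over the fits without 1 library, Trgc1 (-1.05 to 0.0889), Trgc2 (-0.10 to 0.79) and Trgc4 (-0.77 to 0.19) for YFP in naïve cells and Trdc for the difference (-0.23 to 0.14). Trgc1, Trgc2 and Trgc4 were called for YFP in TEM cells under all 21 alternatives, with log2 fold changes of 3.31 to 4.18, 3.73 to 4.74 and 3.44 to 4.26.

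Counts of called genes over the table moved as follows. With a log2 fold change of at least 1 they fell to 4120 and 3319 for TEM against naïve (YFP- and YFP+), and with at least 2 to 2750 and 2020, to 543 for YFP in TEM and to 0 in naïve cells. For YFP in TEM cells the replicate block gave 1869 (814 higher, 1055 lower, against 359 and 728 of 1087), DESeq2 with the block 2411 and edgeR with the block 2098 (1093 and 1005), quantile normalization split 1492 calls into 686 and 806, and the fits without 1 library gave 638 to 1018, the lowest without YFP- TEM replicate 3. For naïve cells, where limma called 1, the counts were 3 with 0.1 added, 2 with TMM, 0 in a fit of the groups compared (397 genes at an unadjusted p under 0.05), 6 with the block, 2 with edgeR, 14 with DESeq2, 69 with DESeq2 and the block, 6 with edgeR and the block, and 0 to 1 without 1 library. For the difference they were 890 with the block, 844 with DESeq2, 1238 with both, and 279 to 531 without 1 library (554 with all), the lowest without YFP- TEM replicate 3, with 376 when 0.1 was added. Quantile normalization turned the split for TEM against naïve from 4665 higher and 3104 lower to 3585 and 5925 in YFP-, and from 3849 and 2604 to 3063 and 4626 in YFP+ cells. The block changed no call of a constant.

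The mean log2 ratio of gamma to delta moved to -4.75, -4.72, -0.43 and 3.58 (YFP- naïve, YFP+ naïve, YFP- TEM, YFP+ TEM) with no length correction, and to -2.71, -2.67, 1.61 and 5.63 with GENCODE exons. Without Trgc1 it was -4.97, -4.66 and -0.16 in the first 3 groups, without Trgc2 -4.11 in YFP+ naïve and 3.80 in YFP+ TEM, without Trgc4 -4.11 in YFP+ naïve, and with unique windows -3.07 in YFP+ naïve cells. The cause of these moves beyond the change of length or gene was not tested. Windows unique in the genome were not run. Depth limits the naïve values most, with 10 to 28 gamma reads per library.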
